A study of Arabidopsis thaliana with 6 samples.

Results

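A set of 185 of the 33242 nuclear genes of *Arabidopsis thaliana* was higher in both *nerd-1* and *nerd-1*+T seedlings than in WT seedlings. NERD is a nuclear protein linked to DNA methylation-dependent silencing and to the formation of mRNA 3′ ends, and *nerd-1* is a T-DNA insertion allele of its gene. In *nerd-1*+T plants, the same mutant expresses a flag-tagged version of NERD. The genes described here are therefore those whose higher level in the mutant was still present when the tagged protein was put back. Members were chosen on the measured values: the lowest of the 4 *nerd-1* and *nerd-1*+T values had to be at least 5 FPKM (fragments per kilobase of feature, scaled to the size of the library) and at least 2 times the higher of the 2 WT values. The rule thus fixes the direction against WT, and all values against WT below are descriptions of the chosen genes with no test.

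Polyadenylated RNA was sequenced from whole 14-d-old seedlings of ecotype Col-0 in 3 groups, WT, *nerd-1* and *nerd-1*+T, with 2 replicates per group and no treatment. The plants of both lines share the *nerd-1* background, and the promoter that drives the transgene and the number of independent lines behind *nerd-1*+T are not given in the sources used here. Whole seedlings pool roots and shoots, so that fewer cells of a type and less RNA per cell cannot be told apart. The labels do not say that replicates came from separate cultures, and the spread between them may be technical.

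The *NERD* gene (AT2G16485) was at 14.1 and 13.9 FPKM in the WT libraries, at 7.59 and 7.45 FPKM in *nerd-1* and at 63.7 and 63.5 FPKM in *nerd-1*+T, the order that the labels give. Summed levels of 9 shoot markers, 1 of them a member, were at 16485 and 17317 FPKM in WT. They were at 19220 and 20039 FPKM in *nerd-1* and at 17743 and 18542 FPKM in *nerd-1*+T. Those of roots were at 2203 and 2225 FPKM in WT and between 1449 and 1618 FPKM in both lines, and their part in the results was not tested. Summed seed and flower markers did not exceed 1.93 and 3.44 FPKM. The deposited values hold no read counts, so how many reads stand behind a value is unknown. Precision was judged from the replicates: over the members, the median coefficient of variation was 2.93% for WT, 2.22% for *nerd-1* and 6.97% for *nerd-1*+T. Across all 20249 tested features the median log2 difference from WT was -0.11 for *nerd-1* and -0.17 for *nerd-1*+T, so that the members stand above a background that leaned down.

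Several groups of genes recur among the members. Plants that run short of sugar switch on genes that break down amino acids, raffinose sugars and cell wall polymers and that move sugars between cells, a program in which the kinase SnRK1 and bZIP transcription factors take part. Touch and bending switch on calmodulin-like calcium sensors and enzymes that remodel xyloglucan, the polymer that ties cellulose fibrils together. Light-harvesting proteins bind chlorophyll around the photosystems, and their nuclear genes respond to light, sugar and the state of the chloroplast. Proteins of the EXORDIUM family are secreted into the cell wall space and were linked to growth under brassinosteroids and under low carbon supply.

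The ratio of the lowest line value to the higher WT value had a median of 2.62 over the 185 members. It was at least 3 in 62 members and at least 5 in 21. By group means, the median member was 2.93-fold above WT in *nerd-1* and 3.29-fold above WT in *nerd-1*+T. WT means ran from 0.756 to 1594 FPKM with a median of 13.8 FPKM, and 43 members had a WT mean below 5 FPKM. In the annotation of TAIR10.1, 183 members are protein coding and 2 are noncoding RNAs (AT1G15175 and AT1G67105). The members were 0.557% of the nuclear genes. In a wider count, all 4 line libraries were above both WT libraries in 16.1% of the 15813 nuclear genes that reached 5 FPKM in a library. This share is of the same contrasts as the rule and is given as background only.

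The gene with the largest ratio was *PHI-1* (AT1G35140, *EXL1*), a member of the EXORDIUM family that lies on chromosome 1 from 12851983 to 12853235 (plus strand, TAIR10.1). It was at 2.11 and 2.49 FPKM in WT, at 99.5 and 95.3 FPKM in *nerd-1* and at 177 and 168 FPKM in *nerd-1*+T, with a lowest line value 38.2 times the higher WT value. AT1G50040, which encodes a protein with a DUF1005 domain, followed with 1.05 and 0.900 FPKM in WT, 15.6 and 15.7 FPKM in *nerd-1* and 21.8 and 18.1 FPKM in *nerd-1*+T. *TCH4* (AT5G57560, *XTH22*), a touch-induced xyloglucan endotransglucosylase that cuts and rejoins xyloglucan chains, was at 51.5 and 53.6 FPKM in WT. Its values were 743 and 772 FPKM in *nerd-1* and 1091 and 1120 FPKM in *nerd-1*+T. In these genes the groups stood far apart, and the replicates of a group were close to each other.

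The gene with the fourth ratio was AT3G19680, another DUF1005 gene, with 8.80 and 8.73 FPKM in WT, 111 and 108 FPKM in *nerd-1* and 89.1 and 76.3 FPKM in *nerd-1*+T. *JAZ7* (AT2G34600), a repressor of jasmonate responses, was at 1.15 and 0.974 FPKM in WT, at 8.996 and 9.96 FPKM in *nerd-1* and at 11.6 and 15.1 FPKM in *nerd-1*+T. AT1G02660, annotated as an alpha/beta-hydrolase, was at 7.12 and 7.77 FPKM in WT and between 57.4 and 66.3 FPKM in both lines. *BCB* (AT5G20230), a blue copper-binding protein of the cell surface, was at 5.50 and 4.45 FPKM in WT, at 39.7 and 42.3 FPKM in *nerd-1* and at 63.3 and 55.2 FPKM in *nerd-1*+T. *EXO* (AT4G08950), the founder of the EXORDIUM family, was at 29.2 and 28.9 FPKM in WT, at 214 and 208 FPKM in *nerd-1* and at 391 and 472 FPKM in *nerd-1*+T. Except for AT3G19680, the *nerd-1*+T libraries were above the *nerd-1* libraries in each of these 8 genes.

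**Figure D1:**
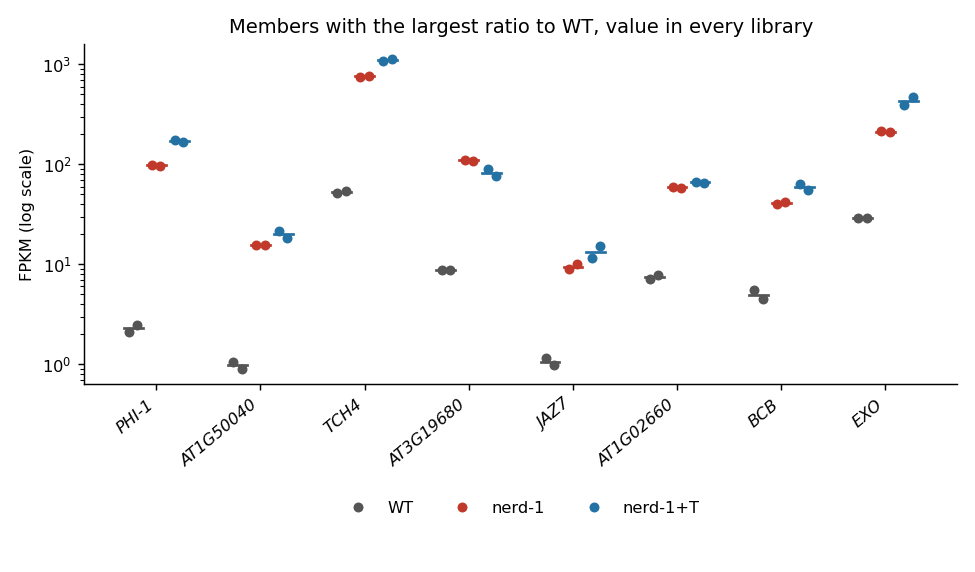
FPKM (log axis) in every library for the 8 members with the largest ratio of the lowest line value to the higher WT value; points are single libraries and short lines are means of 2. The WT points lie well below those of both lines, with *PHI-1* at 2.11 and 2.49 FPKM in WT against 95.3 FPKM or more in the lines.

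The 250 bases before the annotated starts of these genes were read from TAIR10.1 and searched for short motifs on both strands. Of the 8 promoters, 5 held a W-box (TTGACC or TTGACT, the element bound by WRKY transcription factors), and 4 of these 5 are shown. They are printed 5′ to 3′ in the direction of the gene, and capitals mark the W-box or its reverse complement.
*PHI-1*, chr1:12851733-12851982, plus strand: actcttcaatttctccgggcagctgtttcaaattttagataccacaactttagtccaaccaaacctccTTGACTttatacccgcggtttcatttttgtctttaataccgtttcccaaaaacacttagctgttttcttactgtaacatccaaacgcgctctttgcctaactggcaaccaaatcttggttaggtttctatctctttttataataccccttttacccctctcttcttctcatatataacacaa
*TCH4*, chr5:23308681-23308930, minus strand: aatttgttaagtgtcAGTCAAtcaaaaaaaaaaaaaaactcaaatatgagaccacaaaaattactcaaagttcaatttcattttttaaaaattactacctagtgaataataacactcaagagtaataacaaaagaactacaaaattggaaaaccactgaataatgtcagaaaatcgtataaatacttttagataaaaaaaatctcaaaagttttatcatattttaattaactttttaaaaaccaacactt
AT3G19680, chr3:6840031-6840280, plus strand: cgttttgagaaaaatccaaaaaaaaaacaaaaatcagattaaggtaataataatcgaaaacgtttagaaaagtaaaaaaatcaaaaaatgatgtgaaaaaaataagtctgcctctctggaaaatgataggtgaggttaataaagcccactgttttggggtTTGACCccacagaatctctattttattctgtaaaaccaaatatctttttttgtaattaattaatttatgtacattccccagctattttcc
*EXO*, chr4:5739969-5740218, plus strand: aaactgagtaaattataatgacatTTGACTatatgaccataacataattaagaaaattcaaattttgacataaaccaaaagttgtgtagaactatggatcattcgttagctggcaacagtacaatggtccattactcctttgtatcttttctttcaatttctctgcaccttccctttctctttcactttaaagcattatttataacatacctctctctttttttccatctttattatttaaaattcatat

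Each of the 4 promoters shown held 1 match, whose first base lay 182 bases before the start in *PHI-1*, 235 in *TCH4*, 90 in AT3G19680 and 226 in *EXO*. Over all members, 68 of 185 promoters (36.8%) held a W-box, against 27.4% of the 13805 promoters of genes with at least 5 FPKM in all 4 line libraries. Of the other motifs searched, the P1BS element (GNATATNC, bound by the phosphate starvation regulator PHR1) was in 10.8% of the members' promoters against 5.48%, and the evening element of the circadian clock (AAAATATCT) was in 4.32% against 2.56%. The CAMTA box core (CGCGT) was in 9.73% against 7.42%, and the G-box (CACGTG) in 7.57% against 7.40%. The DRE/CRT core (CCGAC) was in 10.8% against 13.2%, the GCC-box (GCCGCC) in 1.62% against 1.97% and the TATA box (TATAAA) in 48.1% against 45.9%. Matches of different motifs may share bases. These shares describe letters in a window of fixed length, were not tested, and leave binding unmeasured.

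The EXORDIUM family as a whole was then followed, a choice made after its values were seen. Of its 8 genes, 6 were members. *EXL3* (AT5G51550) was at 43.9 and 44.6 FPKM in WT, at 140 and 142 FPKM in *nerd-1* and at 222 and 203 FPKM in *nerd-1*+T. *EXL5* (AT2G17230) was at 31.6 and 30.9 FPKM in WT, at 125 and 125 FPKM in *nerd-1* and at 188 and 225 FPKM in *nerd-1*+T. *EXL2* (AT5G64260) was 2.94-fold and *EXL4* (AT5G09440) 2.80-fold above WT in *nerd-1*, and both were above 3-fold in *nerd-1*+T, at 3.21 and 3.27. The pair outside the rule was expressed at little or no level. *EXL7* (AT2G35150) did not exceed 2 FPKM in any library and was between 1.24 and 1.88 FPKM in the lines, and *EXL6* (AT3G02970) did not exceed 0.03 FPKM. Every EXORDIUM gene with a level above 5 FPKM was therefore among the members. Of the 5 genes annotated with a DUF1005 domain, 3 were members, and the third of them (AT1G10020) was 2.39-fold and 2.26-fold above WT. The other two, AT4G29310 and *ASG1* (AT5G17640), were 1.14-fold and 1.56-fold above WT in *nerd-1*, and 1.38-fold and 2.18-fold above WT in *nerd-1*+T.

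Genes of low sugar and low energy conditions made up another group. Of the 12 genes on this list, 5 were members, and the other 7 were tested against WT because the rule had not chosen them. This list and those used below were drawn up with earlier results of these data known. Tests of their genes are therefore not independent of these data. *ASN1* (AT3G47340), an asparagine synthetase induced by darkness and sugar shortage, was at 42.2 and 43.3 FPKM in WT, at 227 and 232 FPKM in *nerd-1* and at 367 and 312 FPKM in *nerd-1*+T. *DIN10* (AT5G20250), a dark-induced gene of the raffinose synthase family, was at 81.1 and 82.6 FPKM in WT, at 446 and 454 FPKM in *nerd-1* and at 761 and 686 FPKM in *nerd-1*+T. *TPS11* (AT2G18700), a trehalose phosphate synthase-like protein, was at 20.4 and 21.4 FPKM in WT and between 82.4 and 88.4 FPKM in both lines. A related gene, *TPS8* (AT1G70290), was at 59.0 and 59.5 FPKM in WT, at 141 and 142 FPKM in *nerd-1* and at 123 and 144 FPKM in *nerd-1*+T. *MCCA* (AT1G03090), a subunit of the carboxylase that breaks down leucine, was at 18.9 and 18.9 FPKM in WT, at 48.0 and 48.6 FPKM in *nerd-1* and at 68.9 and 58.7 FPKM in *nerd-1*+T. By the rule, every line library of these 5 genes was at least 2 times the higher WT value.

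Of the 7 list genes outside the rule, 7 rose in *nerd-1* and 7 rose in *nerd-1*+T against WT (limma, Benjamini-Hochberg adjusted over all tested features, threshold 0.05). Over all features, 19.4% were higher and 36.3% lower in *nerd-1* than in WT, and 13.2% were higher and 39.8% lower in *nerd-1*+T. *SEN1* (AT4G35770), a marker of dark-induced senescence, was at 242 and 240 FPKM in WT, at 452 and 461 FPKM in *nerd-1* and at 677 and 953 FPKM in *nerd-1*+T. Its log2 difference from WT was 0.92 in *nerd-1* (SE 0.16, limma adjusted *p* = 0.00639) and 1.73 in *nerd-1*+T (adjusted *p* = 0.000900). *BCAT2* (AT1G10070), which acts on branched-chain amino acids, was at 5.74 and 6.59 FPKM in WT, at 10.9 and 11.6 FPKM in *nerd-1* and at 21.1 and 22.6 FPKM in *nerd-1*+T. *MCCB* and *IVD*, which act with *MCCA* in leucine breakdown, rose by 0.52 and 0.39 log2 units in *nerd-1* and by 0.57 and 0.69 in *nerd-1*+T. Over the 12 genes the median log2 difference from WT was 0.90 for *nerd-1* and 1.42 for *nerd-1*+T, against the medians of -0.11 and -0.17 over all tested features.

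**Figure D2:**
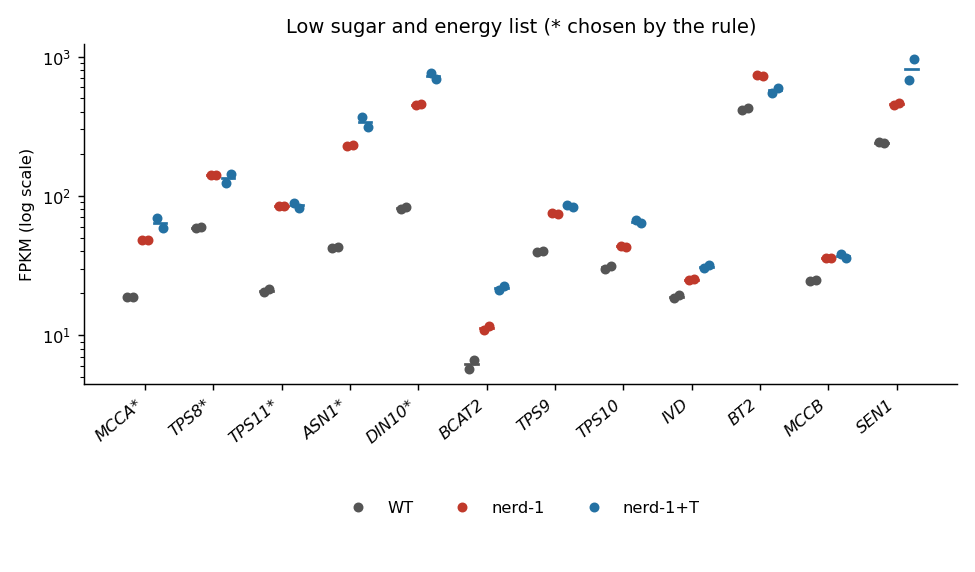
FPKM (log axis) in every library for the 12 genes of the low sugar and energy list; asterisks mark the 5 genes chosen by the rule, points are libraries and short lines are means of 2. The line libraries lie above the WT libraries in each gene, with *SEN1* at 240 and 242 FPKM in WT and at 452 to 953 FPKM in the lines.

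Other members act in the use of sugars and amino acids, and were picked from the members for that role after their values were seen. *STP1* (AT1G11260), which imports hexoses into cells, was at 59.8 and 59.7 FPKM in WT, at 445 and 423 FPKM in *nerd-1* and at 482 and 366 FPKM in *nerd-1*+T. Another hexose carrier, *STP4* (AT3G19930), was 2.27-fold and 2.34-fold above WT. The β-xylosidase genes *BXL1* (AT5G49360) and *BXL2* (AT1G02640), whose products trim cell wall xylans, were 4.93-fold and 7.69-fold above WT in *nerd-1*. *SIP2* (AT3G57520), a raffinose-cleaving enzyme, was 2.90-fold above WT in *nerd-1* and 5.17-fold above WT in *nerd-1*+T. *ERD5* (AT3G30775), the proline dehydrogenase that opens proline breakdown, was 2.37-fold and 7.47-fold above WT. The bZIP factor *BZO2H3* (AT5G28770, bZIP63), which takes part in low energy signalling, was 2.32-fold and 2.76-fold above WT. AT3G15450 was named for its level, as it is among the 5 members with the highest level, and not for such a role. It was at 660 and 655 FPKM in WT and between 1725 and 1905 FPKM in the lines.

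Members with a role in cell wall remodelling included 4 genes for xyloglucan endotransglucosylases (XTH). Besides *TCH4*, these were *XTR6* (AT4G25810, *XTH23*), *XTH24* (AT4G30270) and *XTH18* (AT4G30280). *XTR6* was at 3.27 and 2.91 FPKM in WT, at 11.9 and 12.0 FPKM in *nerd-1* and at 29.5 and 28.5 FPKM in *nerd-1*+T. *XTH24* was at 92.2 and 94.8 FPKM in WT, at 192 and 203 FPKM in *nerd-1* and at 554 and 490 FPKM in *nerd-1*+T. Of the 26 XTH genes that reached 5 FPKM in a library, 15 had all 4 line libraries above both WT libraries. The share over all nuclear genes at this level was 16.1%. The 15 include the 4 members, which the rule placed above WT, and the family was picked after values were seen. Some of the others were only slightly higher, such as *XTH19* at 1.09-fold and 1.22-fold of WT. The count is a description and was not tested. Not every member of the family was higher, and *XTH31* (AT3G44990) was at 27.0 and 26.5 FPKM in WT, at 15.2 and 14.9 FPKM in *nerd-1* and at 8.67 and 8.28 FPKM in *nerd-1*+T.

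Around the same polymer, *XT1* (AT3G62720), which adds xylose to xyloglucan, was at 13.9 and 13.8 FPKM in WT, at 33.5 and 32.6 FPKM in *nerd-1* and at 54.0 and 59.9 FPKM in *nerd-1*+T. The expansin-like gene *EXLA1* (AT3G45970) was 6.98-fold above WT in *nerd-1* and 20.9-fold above WT in *nerd-1*+T. *LRX3* (AT4G13340), a leucine-rich repeat extensin of the wall, was 4.80-fold and 6.35-fold above WT. *THE1* (AT5G54380), a receptor kinase that monitors wall integrity, was 3.82-fold and 7.16-fold above WT. It lies in a segment of chromosome 5, described below, in which most expressed genes were higher in both lines. *AGP16* (AT2G46330) and *BGAL4* (AT5G56870), an arabinogalactan protein and a β-galactosidase, were between 2.12-fold and 2.58-fold above WT in both lines.

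Of the 17 genes on the list of touch and early stress genes, 4 were members, and these were mostly the touch genes. *TCH3* (AT2G41100), a calmodulin-like calcium sensor, was at 113 and 111 FPKM in WT, at 657 and 678 FPKM in *nerd-1* and at 818 and 834 FPKM in *nerd-1*+T. *CML38* (AT1G76650), another calcium sensor, was at 17.1 and 17.42 FPKM in WT, at 40.7 and 43.2 FPKM in *nerd-1* and at 36.0 and 50.3 FPKM in *nerd-1*+T. The touch gene *CML24* (AT5G37770) fell short of the rule, with 91.4 and 84.0 FPKM in WT and 176 to 211 FPKM in the lines, and it rose 2.01-fold for *nerd-1* and 2.31-fold for *nerd-1*+T by group means (limma adjusted *p* = 0.000526 and 0.000202). Most list genes outside the rule, which are calmodulin-like genes and stress transcription factors, were higher in *nerd-1* and not in *nerd-1*+T. Of the 12 tested, 10 were higher in *nerd-1* than in WT, against 19.4% of all features. In *nerd-1*+T, 2 were higher (*CML24* and *ERF1A*) and 9 lower than in WT, against 13.2% and 39.8% of all features. Set directly against *nerd-1*+T, 11 of these 12 were higher in *nerd-1* and 0 lower, against 24.0% and 14.0% of all features. *WRKY33* (AT2G38470), for instance, was at 40.8 and 45.6 FPKM in WT, at 121 and 126 FPKM in *nerd-1* and at 23.6 and 27.4 FPKM in *nerd-1*+T.

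Light-harvesting genes were the most abundant members. Among them, *LHCB3* lies in the same chromosome 5 segment as *THE1*. *LHCB3* (AT5G54270), a protein of the photosystem II antenna, was at 860 and 870 FPKM in WT, at 6814 and 7077 FPKM in *nerd-1* and at 5231 and 3639 FPKM in *nerd-1*+T. *LHCA4* (AT3G47470) of the photosystem I antenna was at 1581 and 1607 FPKM in WT, at 4598 and 4739 FPKM in *nerd-1* and at 4069 and 3315 FPKM in *nerd-1*+T. *CAB2* (AT1G29920, *LHCB1.1*) was at 668 and 687 FPKM in WT, at 2824 and 2799 FPKM in *nerd-1* and at 3022 and 2672 FPKM in *nerd-1*+T. *LHCB2.1* (AT2G05100), *LHCB2.2* (AT2G05070) and *LHCB2.3* (AT3G27690), the last picked after its values were seen, were 3.83-fold, 2.16-fold and 3.45-fold above WT in *nerd-1* and 2.77-fold, 2.27-fold and 4.26-fold above WT in *nerd-1*+T. Copies of this family are nearly identical, and the authors' counting shared reads between them by likelihood, so that levels of single copies are uncertain. *LHCB1.3* (AT1G29930), a near copy of *CAB2*, was at 11763 and 11623 FPKM in WT and at 13469 FPKM in 1 *nerd-1*+T library, but was listed at 0 in the other *nerd-1*+T library and in both *nerd-1* libraries. *CAB2* was at 3022 FPKM in the *nerd-1*+T library in which *LHCB1.3* had a value and at 2672 FPKM in the other.

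Of the 13 genes on the light-harvesting list, 5 were members. Of the 8 outside the rule, 7 rose in *nerd-1* and 7 rose in *nerd-1*+T against WT, where 19.4% and 13.2% of all features were higher, and the 1 lower in *nerd-1* was *LHCB1.3*, whose call rests on the values of 0. *LHCB6* (AT1G15820) was at 499 and 469 FPKM in WT, at 1524 and 1383 FPKM in *nerd-1* and at 916 and 719 FPKM in *nerd-1*+T. Without WT replicate 1 or 2, the count in *nerd-1*+T was 4 or 3. Between the lines, 9 of the 13 list genes were higher in *nerd-1* and 0 lower, against 24.0% and 14.0% of all tested features. This count was 2 with FPKM scaled to the total, 5 with scaling to the median feature, 3 without either WT library and 0 without either *nerd-1* library.

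Transcription factors and regulators among the members came in small families, chosen after their values were seen. Of the 4 genes of the *MYB44* subgroup of stress-responsive MYB factors, 3 were members. *MYB73* (AT4G37260) was at 23.0 and 21.9 FPKM in WT, at 134 and 133 FPKM in *nerd-1* and at 62.3 and 48.4 FPKM in *nerd-1*+T. *MYBR1* (AT5G67300, *MYB44*) and *MYB70* (AT2G23290) were 3.45-fold and 4.67-fold above WT in *nerd-1* and 2.66-fold and 3.31-fold above WT in *nerd-1*+T. *MYB77* (AT3G50060), outside the rule, was at 14.6 and 14.8 FPKM in WT, at 82.7 and 79.9 FPKM in *nerd-1* and at 17.0 and 15.4 FPKM in *nerd-1*+T. Of the 5 BTB/TAZ scaffold genes, *BT1* (AT5G63160) and *BT4* (AT5G67480) were members. *BT2* (AT3G48360), on the low sugar list, and *BT5* (AT4G37610) were above WT in both lines but by less than the rule asks in *nerd-1*+T, at 1.37-fold and 1.49-fold. *BT3* (AT1G05690) was at 4.49 and 4.18 FPKM in WT, at 4.54 and 4.96 FPKM in *nerd-1* and at 3.16 and 3.89 FPKM in *nerd-1*+T.

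Of the 4 *LNK* genes, which encode co-activators of the circadian clock, *LNK2* (AT3G54500) was at 61.7 and 62.9 FPKM in WT and between 166 and 179 FPKM in both lines, and *LNK4* (AT5G06980) was 3.75-fold and 4.24-fold above WT. *LNK3* (AT3G12320) was 2.68-fold and 2.11-fold above WT but outside the rule, and *LNK1* (AT5G64170) was at 15.9 and 15.5 FPKM in WT and 14.5 to 21.8 FPKM in the lines. None of the 15 genes on the list of core clock genes was a member. Regulators of light responses among the members included *COL2* (AT3G02380), *BBX28* (AT4G27310), *RUP1* (AT5G52250), which acts on the UV-B receptor, *PAR1* (AT2G42870), which restrains shade responses, and *HAT1* (AT4G17460). Their folds over WT in *nerd-1* ran from 2.24 in *BBX28* to 4.94 in *HAT1*. *SOB5* (AT5G08150) was at 1.998 and 1.90 FPKM in WT, at 12.1 and 13.3 FPKM in *nerd-1* and at 21.8 and 19.6 FPKM in *nerd-1*+T.

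For the metallothionein *MT1B* (AT5G56795), the values were 5.96 and 6.12 FPKM in WT, 36.7 and 22.3 FPKM in *nerd-1* and 24.5 and 16.1 FPKM in *nerd-1*+T. Its close relative *MT1A* (AT1G07600) was at 13761 and 14739 FPKM in WT, at 122376 and 130395 FPKM in *nerd-1* and at 30610 and 9330 FPKM in *nerd-1*+T. Since reads of *MT1A* outnumber those of *MT1B* by far and the copies are alike, the level of *MT1B* is uncertain. *JAZ7* was the only member on the list of 15 jasmonate genes. The lists of salicylic acid defence, the RPP4/SNC1 receptors, copper, iron, phosphate, sulphur and nitrate, cold, heat shock, unfolded proteins, aliphatic glucosinolates, flavonoids, auxin and loci silenced by DNA methylation held 0 members.

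Positions in the genome set some members apart. Chromosome 5 held 54 members (29.2%), against 23.7% of the 13806 annotated genes with at least 5 FPKM in all 4 line libraries, and chromosome 3 held 27 (14.6%), against 19.9%. Of the 54 on chromosome 5, 13 lie in a single segment, described below, that holds 0.543% of those annotated genes. The chromosome 5 share is thus no separate result from that of the segment. Members near the *NERD* gene were few: 2 of 185 (1.08%) lay within 1 Mb of it, against 1.35% of those genes, and these were *EXL5* and *TPS11*. The median annotated length was 1957 bases in members and 2478 bases in the comparison genes.

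A stretch of chromosome 5 was found in which nearly every expressed gene was higher in both lines, and it was described after its values had been seen. A running median over 15 neighbouring genes that reached 5 FPKM in a library was taken along each chromosome. It exceeded 0.5 log2 units in both lines in 1 run only, from AT5G53860 to AT5G55010 (chromosome 5, 21865069 to 22322335, TAIR10.1), which is 457 kb long and holds 80 expressed genes. Outside this run the highest running median was 0.69 for *nerd-1* and 0.48 for *nerd-1*+T, and 4 windows passed 0.5 for *nerd-1* and 0 for *nerd-1*+T. Both highest values came from windows centred just beyond the ends of the run, which still hold some of its genes. Inside the run, 70 of 80 genes (87.5%) had all 4 line libraries above both WT libraries, against 15.8% of the 15666 expressed genes elsewhere. The run was delimited on these same differences from WT, so a high share follows in part from its choice. The median gene of the segment was 1.98-fold above WT in *nerd-1* and 1.83-fold above WT in *nerd-1*+T.

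**Figure D3:**
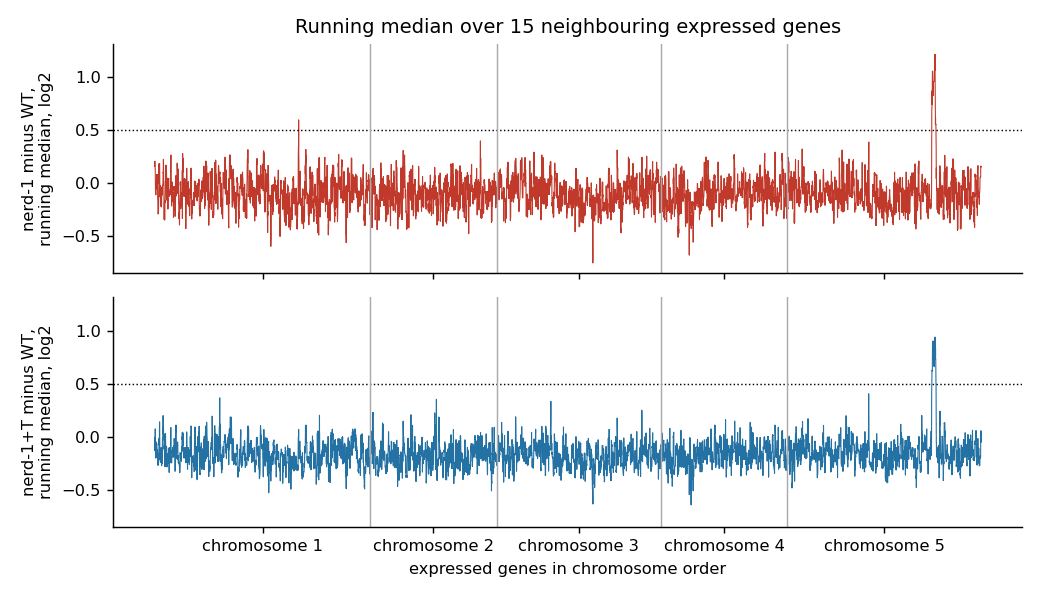
Running median over 15 neighbouring expressed genes of the log2(FPKM + 1) difference from WT, in *nerd-1* (upper) and *nerd-1*+T (lower), along the 5 chromosomes in gene order; the dotted line is at 0.5 and grey lines separate chromosomes. One peak on chromosome 5 passes 0.5 in both lines.

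This segment held 13 of the 185 members (7.03%), although it held 0.543% of the comparison genes. Of its 75 comparison genes 17.3% were members, against 1.25% elsewhere. The segment and the members were chosen on the same contrasts with WT, so an excess is partly implied and is given as description only. In order along the chromosome, the members were *TAT7*, *HGO*, *MAMI*, *MRE11*, *LHCB3*, AT5G54300, *THE1*, *DFL1*, AT5G54540, AT5G54710, AT5G54720, AT5G54860 and AT5G54870. They have little in common by annotation: *MRE11* is a nuclease of DNA repair, *DFL1* joins amino acids to auxin, AT5G54710 and AT5G54720 encode ankyrin repeat proteins, and AT5G54860 encodes a transporter-like protein. *MRE11* (AT5G54260) was at 3.99 and 3.82 FPKM in WT, at 8.28 and 8.64 FPKM in *nerd-1* and at 8.68 and 8.73 FPKM in *nerd-1*+T. *DFL1* (AT5G54510) was at 32.7 and 32.6 FPKM in WT, at 101 and 105 FPKM in *nerd-1* and at 78.2 and 70.9 FPKM in *nerd-1*+T. Outside the segment, the largest number of members that started within 500 kb of each other was 6.

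The other 67 expressed genes of the segment, which the rule did not choose, were 1.82-fold above WT in *nerd-1* and 1.69-fold above WT in *nerd-1*+T by their medians, and 30 of them were between 1.5-fold and 2.5-fold above WT in both lines. *OMT1* (AT5G54160), a methyltransferase of phenylpropanoid synthesis, was at 140 and 140 FPKM in WT, at 296 and 290 FPKM in *nerd-1* and at 280 and 283 FPKM in *nerd-1*+T. *TSB1* (AT5G54810), a subunit of tryptophan synthase, was at 63.0 and 60.5 FPKM in WT and between 111 and 145 FPKM in both lines. *THI1* (AT5G54770), an enzyme of thiamine synthesis, was at 1300 and 1270 FPKM in WT and between 2006 and 3079 FPKM in both lines. These genes work in unrelated pathways and sit on both strands, 48 on the plus strand and 32 on the minus strand over the 80 genes of the segment.

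Exceptions inside the segment were few. The 10 genes without all 4 line libraries above WT included *MYB49* (AT5G54230), *CNGC4* (AT5G54250), *PORA* (AT5G54190) and *PBP1* (AT5G54490). *PBP1*, a calcium-binding protein, was at 9.51 and 11.1 FPKM in WT, at 63.3 and 65.2 FPKM in *nerd-1* and at 14.1 and 9.98 FPKM in *nerd-1*+T. On either side, the medians were near those of the rest of the genome. The 15 expressed genes before the segment had median folds of 0.879 and 0.884, and the 15 after it 1.11 and 0.960. The window of 15 genes blurs the ends: AT5G53850 just before, and AT5G55040, AT5G55050, AT5G55060 and AT5G55070 just after, were between 1.41-fold and 2.23-fold above WT. The values are of RNA and hold no measure of DNA, and what sets this segment apart was not tested. Without its genes, 172 members remain.

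**Figure D4:**
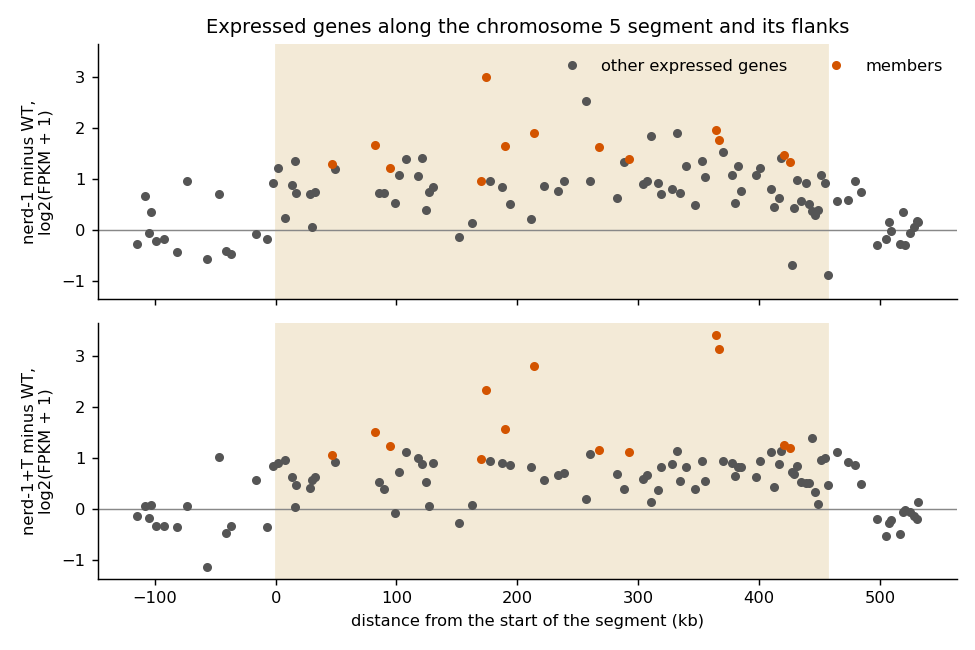
Difference from WT in log2(FPKM + 1) for each expressed gene of the chromosome 5 segment (shaded) and the 15 expressed genes on each side, in *nerd-1* (upper) and *nerd-1*+T (lower), against the distance from the start of the segment in kb; orange points are members. Inside the segment, the members lie higher (median log2 difference 1.62 for *nerd-1* and 1.26 for *nerd-1*+T) than the other genes (0.83 and 0.68), as their choice by the rule implies, and the flanks lie lower (medians -0.18 to 0.15).

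The tyrosine breakdown route crosses this segment. Tyrosine is turned into homogentisate, the precursor of vitamin E and plastoquinone, and then degraded. *TAT7* (AT5G53970), a tyrosine aminotransferase, was at 24.8 and 24.4 FPKM in WT, at 62.8 and 60.02 FPKM in *nerd-1* and at 52.0 and 52.7 FPKM in *nerd-1*+T. *PDS1* (AT1G06570), the hydroxyphenylpyruvate dioxygenase that follows, lies on chromosome 1 and was at 21.3 and 21.3 FPKM in WT, at 45.8 and 46.1 FPKM in *nerd-1* and at 54.4 and 52.5 FPKM in *nerd-1*+T. *HGO* (AT5G54080), which opens the ring of homogentisate, was 3.27-fold and 2.97-fold above WT. The later steps were not among the members, with *MAAI* (AT2G02390) at 0.676-fold and 0.897-fold and *FAH* (AT1G12050) at 0.960-fold and 0.828-fold of WT. This route was picked after its values were seen, and 2 of its 3 members lie in the segment.

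Members also sat next to each other elsewhere. In 7 pairs, 2 members were direct neighbours in the annotation. Within 20 kb of another member lay 35 members (18.9%), 26 of them outside the segment. No such counts were made for the comparison genes, so whether members cluster was not tested. *XTH24* and *XTH18* are tandem genes of 1 family. AT1G57980 and *PUP18* (AT1G57990) are neighbouring transporter genes, with *PUP18* at 39.1 and 38.5 FPKM in WT and between 223 and 260 FPKM in the lines. *CIPK20* (AT5G45820), a protein kinase, was 2.45-fold and *DOG1* (AT5G45830), a regulator of seed dormancy, 4.78-fold above WT in *nerd-1*. AT5G25240, annotated as stress-induced, and *FLOT1* (AT5G25250), a flotillin of the plasma membrane, were 4.19-fold and 3.003-fold above WT in *nerd-1*. The remaining pairs were *MRE11* with *LHCB3* and AT5G54710 with AT5G54720, all in the segment, and AT2G30600 with AT2G30615.

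AT2G30600 and AT2G30615 lie on opposite strands and overlap at their 3′ ends by 600 bases. AT2G30600 was 2.87-fold and 4.90-fold above WT and AT2G30615 3.72-fold and 4.90-fold. In all, 35 members overlap an annotated gene on the other strand, and no share over the comparison genes was taken. The library kit keeps strand, but whether the counting used it is not given in the sources used here, and reads of such partners may not have been told apart. Of the study's lists of readthrough genes, *TPS8* was the only member, on all 3 lists used here (107 genes with more downstream reads in *nerd-1*, 91 at chimeric or extended loci, and 174 in the *FIP37* mutant). Members were 0.557% of all nuclear genes. The study had removed from its *nerd-1* list the genes with changed expression of their own, which largely kept members off it beforehand. That step is described for this list only, and *TPS8* stayed on it although it was 2.38-fold above WT in *nerd-1* here. A link of the members to readthrough was not tested with any of the lists.

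The difference between *nerd-1* and *nerd-1*+T was the comparison that the rule had not used directly. It gives how far apart the lines were in the members. Effects of the tagged protein and other differences between the lines cannot be told apart in this design. The 2 lines were set against each other in 1 fit over the 6 libraries (limma on log2(FPKM + 1), Benjamini-Hochberg adjusted over 20249 features, threshold 0.05). Of the 185 members, 68 (36.8%) were higher in *nerd-1*+T, 29 (15.7%) were higher in *nerd-1* and 88 passed in neither direction. Over all tested features 14.0% were higher in *nerd-1*+T and 24.0% higher in *nerd-1*. The members thus leaned towards *nerd-1*+T, while features as a whole leaned towards *nerd-1*. The rule asks for a raised level in both lines, so genes raised in 1 line only were left out. This choice shapes the shares of the members, and the features as a whole were not chosen in that way. The lean is therefore a description of the chosen genes. Most differences were small: 140 members differed by less than 1.5-fold between the line means, 14 were at least 2-fold higher in *nerd-1*+T and 2 at least 2-fold higher in *nerd-1*. The median log2 difference of *nerd-1* minus *nerd-1*+T was -0.09 over the members and 0.06 over all features.

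With each library scaled to the same FPKM total, 99 members were higher in *nerd-1*+T and 11 higher in *nerd-1*, against 28.0% and 11.7% of all features. The totals were highest in *nerd-1*, at 951758 and 966119 FPKM. *MT1A* alone was at 122376 and 130395 FPKM there, against 9330 to 30610 FPKM in the other libraries. This scaling thus lowers the other *nerd-1* values largely because of 1 gene. The calls also depended on single libraries: without *nerd-1* replicate 1 or 2, they came to 38 or 39 members higher in *nerd-1*+T and 8 or 6 higher in *nerd-1*, and without either WT library the latter count was 17.

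**Figure D5:**
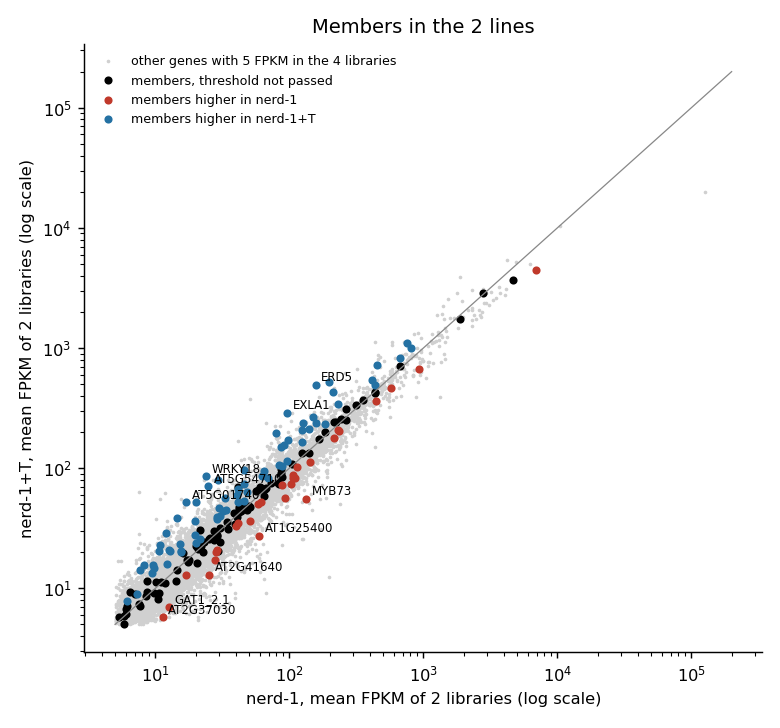
Mean FPKM of 2 libraries in *nerd-1* and *nerd-1*+T (log axes, line of equality in grey) for the 185 members, over the other genes with at least 5 FPKM in all 4 libraries in grey; colours give the limma call and the 10 labelled members are those with the largest differences. Most members lie near equality, 68 are called higher in *nerd-1*+T and 29 higher in *nerd-1*.

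The largest excess in *nerd-1*+T was that of *WRKY18* (AT4G31800), a transcription factor of defence responses. It was at 8.43 and 7.85 FPKM in WT, at 23.4 and 24.2 FPKM in *nerd-1* and at 74.0 and 97.3 FPKM in *nerd-1*+T, a log2 difference of *nerd-1* minus *nerd-1*+T of -1.79 (SE 0.13, limma adjusted *p* = 0.00123). *ERD5* was at 63.6 and 68.7 FPKM in WT, at 158 and 156 FPKM in *nerd-1* and at 460 and 529 FPKM in *nerd-1*+T (log2 difference -1.64, SE 0.08). *EXLA1* was at 12.7 and 14.99 FPKM in WT, at 96.2 and 97.4 FPKM in *nerd-1* and at 267 and 311 FPKM in *nerd-1*+T (log2 difference -1.57, SE 0.10). AT5G01740, annotated as a nuclear transport factor 2 family protein, and the ankyrin repeat gene AT5G54710 followed with log2 differences of -1.56 and -1.46. In all 5, both *nerd-1*+T libraries were above both *nerd-1* libraries, as the way they were picked requires.

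In the other direction, *MYB73* was the most different, with a log2 difference of 1.26 (SE 0.12, limma adjusted *p* = 0.00223) and 2.41 times the *nerd-1*+T level in *nerd-1*. AT1G25400, an uncharacterized protein, was at 60.6 and 59.1 FPKM in *nerd-1* and at 28.5 and 26.3 FPKM in *nerd-1*+T. AT2G41640, a glycosyltransferase, was at 24.8 and 25.4 FPKM in *nerd-1* and at 13.7 and 12.3 FPKM in *nerd-1*+T. AT2G37030, a SAUR-like gene, and *GAT1_2.1* (AT1G15040), annotated as a glutamine amidotransferase, were 1.97-fold and 1.78-fold higher in *nerd-1*. In these 5 genes *nerd-1*+T lay between WT and *nerd-1*, as their choice among the members implies.

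By list, the low sugar genes leaned towards *nerd-1*+T. Of the 12 genes, 8 were higher in *nerd-1*+T and 1 higher in *nerd-1*, against 14.0% and 24.0% of all features. Without either *nerd-1* library the counts were 3 and 0, and with FPKM scaled to the total they were 10 and 0, against 28.0% and 11.7% of all features. For light harvesting, the excess in *nerd-1* depended on scaling and on single libraries, as given above. The weight of *MT1A* in the total bears on the scaled counts of these lists too. Among the members of these lists, *ASN1* and *DIN10* had log2 differences of -0.56 and -0.68, and *LHCB3* and *LHCB2.1* had 0.67 and 0.47 (limma adjusted *p* = 0.0340 and 0.0336). *TPS11*, *TPS8* and *CAB2* had differences of -0.01, 0.08 and -0.02 and passed in neither direction. The *nerd-1*+T mean was 2.05 times the *nerd-1* mean for *EXO*, 2.64 times for *XTH24* and 2.43 times for *XTR6*.

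Near the thresholds of the rule the choice was a matter of small differences. Just inside the ratio of 2 were *J11* (AT4G36040) at 2.002, AT4G34150 at 2.004 and *SAG20* (AT3G10985) at 2.009. Just outside it were AT1G69900 at 1.995, AT2G20835 at 1.995 and *SMT3* (AT1G76090) at 1.994. At the level of 5 FPKM, AT3G01430, AT3G48390 and *DOG1* were inside with lowest line values of 5.01, 5.25 and 5.40 FPKM. AT5G39580, AT1G77640 and AT1G05135 were outside with 4.97, 4.85 and 4.82 FPKM.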

How the data were processed

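According to the submitters' processing notes and the study's methods, the authors removed reads of organelle and ribosomal RNA genes with Bowtie2 2.3.4, mapped the rest to TAIR10 with TopHat2 2.0.7 and estimated expression with Cufflinks 2.2.1, library by library. The deposited tables hold FPKM of 64621 features, and a value of 0 can be a failed estimate. Counts had been assumed possible when the tests were laid out, and the fallback for normalized units was used: log2(FPKM + 1) was analysed with limma 3.58.1 (R 4.3.3, mean-variance trend, all 6 libraries in 1 fit, no block) over features that reached 1 FPKM in 2 or more libraries. The procedure was checked on simulated data. A log2 difference understates the change of features near or below 1 FPKM. The total of FPKM per library ran from 847355 to 966119, and was highest in both *nerd-1* libraries, largely through *MT1A*.

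The members, gene lists and tests were chosen with earlier results of these data known. Genes were named by list membership, the 8 largest ratios, the 5 highest means, the 5 largest differences between the lines in each direction without overlap, the thresholds, neighbouring members and the study's readthrough lists. Further families and the chromosome 5 segment were chosen after values were seen. Names, positions and promoters come from TAIR10.1, which holds all 185 members and 32780 of the 33242 nuclear genes; the deposited files give no coordinates. The promoter sequence of 1 gene is not reported here. Replicate numbers did not pair the libraries. Alternatives covered scaling, filters, pseudocount, the replicate block, fewer libraries and the thresholds. Python 3.11.15, numpy 2.4.6, pandas 2.3.3 and matplotlib 3.10.9 were used.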

Additional observations from a re-analysis of the deposited data

Results flagged for a closer look

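The 10 members with the largest differences between *nerd-1* and *nerd-1*+T are listed for a closer look because their distance from WT differed between the lines by the limma test, with no overlap between the 2 + 2 libraries. All values are log2 differences of *nerd-1* minus *nerd-1*+T. Those higher in *nerd-1*+T were *WRKY18* (-1.79), *ERD5* (-1.64), *EXLA1* (-1.57), AT5G01740 (-1.56) and AT5G54710 (-1.46). Those higher in *nerd-1* were *MYB73* (1.26), AT1G25400 (1.1), AT2G41640 (0.90), AT2G37030 (0.85) and *GAT1_2.1* (0.76).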

How the results depend on the processing

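The number of members was 185 as reported, 161 with FPKM scaled to the total (158 of them members) and 272 with scaling to the median feature (all 185 members among them). It was 461 at a ratio of at least 1.5 and 62 at a ratio of at least 3, and between 189 and 243 when 1 library was left out. Members that differed between *nerd-1* and *nerd-1*+T numbered 97, and between 45 and 118 when 1 library was left out. Those higher in *nerd-1* numbered 29 as reported, 11 with FPKM scaled to the total, 17 with only the 2 genotypes in the fit and 6 to 42 without 1 library. Those lower in *nerd-1* numbered 68, and 38 to 80 without 1 library. Leaving out the chromosome 5 segment, an alternative added after seeing the data, left 90 differing members, 25 higher and 65 lower in *nerd-1*. Features that differed from WT numbered 11275 in *nerd-1* (5885 to 13629 without 1 library) and 10744 in *nerd-1*+T (5859 to 12676). Where a group was left with 1 library, that library was assumed to vary like the other groups.

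With the replicate block, 89 members differed, 24 higher and 65 lower in *nerd-1*, and 10713 and 10187 features differed from WT. Deviations of same-numbered libraries correlated by 0.05 (WT and *nerd-1*), 0.09 (WT and *nerd-1*+T) and -0.0007 (both lines), so that the numbers were not taken to pair the libraries. Of 130 alternative values of the 10 named differences, 128 stayed past the threshold and 0 changed direction, and the other 2 were those of *GAT1_2.1* without either *nerd-1* library (0.80, limma adjusted *p* = 0.0560, and 0.72, adjusted *p* = 0.0703). Depth could not be judged from FPKM.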

Other observations

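Genes next to members were compared with genes next to the comparison genes (at least 5 FPKM in all 4 line libraries), leaving out members in the chromosome 5 segment. Of the 59 tested neighbours upstream on the same strand, 33.9% had all 4 line libraries above both WT libraries, against 15.9% of 4946 such neighbours of comparison genes. Downstream on the same strand the shares were 36.2% of 58 and 15.2% of 5075. On the other strand they were 25.5% of 55 upstream and 25% of 60 downstream, against 15.8% and 15.1%. Some of these neighbours are members themselves, and the shares were not tested.

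Defence-related members outside the lists included 2 thionin genes. AT1G66100 was at 73.7 and 74.4 FPKM in WT and between 306 and 361 FPKM in the lines, and *THI2.2* (AT5G36910) was at 11.7 and 12.3 FPKM in WT and between 56.3 and 79.5 FPKM in the lines. *CYP81F2* (AT5G57220), which modifies indole glucosinolates, was 5.57-fold and 5.50-fold above WT, and *WRKY22* (AT4G01250) 3.91-fold and 2.78-fold. The hormone-related members *PYL5* (AT5G05440), an abscisic acid receptor, and *ACS11* (AT4G08040), an enzyme of ethylene synthesis, were 4.45-fold and 5.01-fold above WT in *nerd-1* and 6.16-fold and 6.41-fold in *nerd-1*+T. The transcription factor gene *DREB26* (AT1G21910) had the values 53.4 and 85.9 FPKM in *nerd-1*+T against 40.4 and 42.7 FPKM in *nerd-1*.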
